A study of Mus musculus with 6 samples.

Results

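The Myc locus and the gene desert around it were followed through BRM014 treatment in ATAC-seq peak lists of NMuMG cells, a mouse line of mammary gland epithelium. In ATAC-seq the transposase Tn5 cuts and tags open DNA, so that reads pile up at accessible regions. All accessible regions that overlapped chromosome 15 from 61500000 to 63700000 (mouse build mm9), a window of 2.2 Mb, were taken, and entries of a list that overlap were merged into 1 region. This gave 42 of 42310 regions in the DMSO list, 26 of 25922 in the list of cells treated with BRM014 for 6 h, and 45 of 38422 in the list for 30 h. The position 61.82 Mb, where Myc lies to the nearest 10 kb, served as the anchor for all distances, which are positive on the side of Pvt1. No mm9 gene annotation was used here, so which region covers the start of Myc, and which lie inside Pvt1, was not analysed here.

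The wild-type cells received either the vehicle DMSO or BRM014, with 2 biological replicates in each of the 3 groups. Both replicates of a group went into 1 list when the authors called peaks, so no spread between replicates could be given and no treatment was tested against another. DMSO cells are dated to 30 h only by the name of their list, so a vehicle sample matched to the 6 h treatment was not analysed here. All 6 samples come from this 1 cell line, grown with serum and insulin. The labels' extraction text also speaks of TGFβ, which no sample label carries.

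Myc encodes a basic helix-loop-helix transcription factor that drives growth and proliferation, and its transcription depends in many tissues on enhancers spread over the gene-poor DNA on either side. Pvt1, its neighbour, is a long non-coding RNA gene whose promoter and introns hold elements that contact Myc. BRM014 blocks the ATPases Smarca4 (BRG1) and Smarca2 (BRM), the motors of the SWI/SNF complexes that slide and evict nucleosomes, and distal enhancers are known to depend on these complexes more than many promoters do. In the RefSeq gene table of the build GRCm38, used only for gene order, Myc is followed by Pvt1 and the pseudogene Macroh2a3. The nearest other protein-coding genes in that order are A1bg before Myc and Gsdmc, a gasdermin gene, after it. Between them the table lists 23 entries besides Myc, among them 13 lncRNAs and 7 pseudogenes.

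2 measures of a region are used. The first is the -log10 q that the authors' peak caller gave it, which orders regions within a list. The second is the summit pileup, the number of reads stacked at the highest summit, which was solved from 2 deposited values of each entry, its fold enrichment and its -log10 p. The lists differed in depth: judged by its lowest background, 6 h reached 63.0% and 30 h reached 80.7% of DMSO. The DMSO pileup times this share is the pileup expected in a treated list, and lists were compared by the ratio of the pileup found to that expected. This scaling matches only the lowest background of the lists. Over all DMSO regions that were called again this ratio had a median of 0.855 at 6 h and 0.985 at 30 h, so a ratio was read against both 1 and that median. The 95% interval of a ratio treats pileups as counts and covers counting error only.

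The gene desert was not poor in accessible regions. Its 42 DMSO regions compare with a median of 44 (quartiles 30 and 61) in the 805 windows of 2.2 Mb along the genome that held at least 20 DMSO regions. The regions covered 28.8 kb, with a median width of 649 bp against 677 bp over the whole DMSO list, and 24 had a single summit. Their median -log10 q was 80.9, against 91.7 over the list. They were unevenly placed: 5 lay on the side away from Pvt1, 4 of these within 5 kb of the anchor, and 21 lay between the anchor and 500 kb. The next 1000 kb held 14 regions and the rest of the window 2. The longest stretch between neighbouring DMSO regions, 265.6 kb, ran from 61549318 to 61814892, on the side away from Pvt1. The last 266.6 kb of the window, beyond its last DMSO region, also held none. The strongest region of the window was 340 kb from the anchor, from 62159785 to 62160497, with a -log10 q of 793, at percentile 99.7 of the DMSO list.

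**Figure D1:**
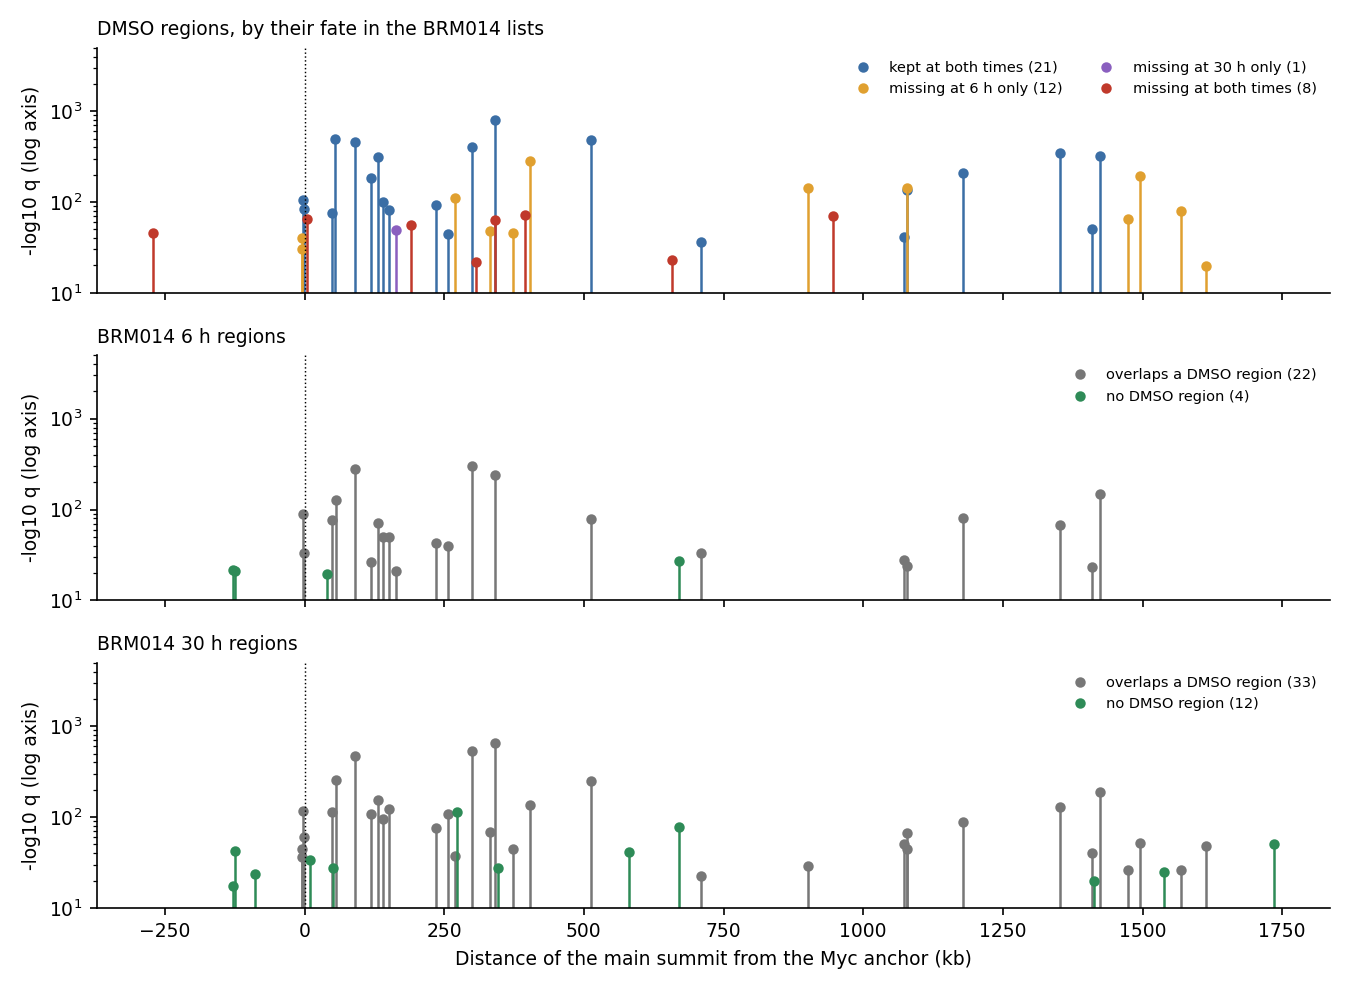
Regions of the Myc window in the 3 lists, by distance of the main summit from the Myc anchor in kb (horizontal) and -log10 q as the authors' caller gave it (vertical, log axis); each stem is 1 region. The top panel colours the 42 DMSO regions by whether they were called again, and the lower panels mark the 4 regions at 6 h and the 12 at 30 h without a DMSO region; heights compare regions within a panel only.

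In the 6 h list, 20 of the 42 members from DMSO found no counterpart, 47.6% (95% Wilson interval 33.4 to 62.3%), where the share over all DMSO regions was 43.6%. After 30 h it was 9 regions, 21.4% (11.7 to 35.9%), with 26.1% over all. Of the 42, 21 were called in all 3 lists, 12 were absent from the 6 h list alone, 1 from the 30 h list alone and 8 from both. Over all DMSO regions these classes held 54.1%, 19.9%, 2.33% and 23.7%. Each of the 4 genome-wide shares lay inside the Wilson interval of the window's share. In windows of the same length the share missing at 6 h had quartiles of 37.5 and 52.2%, and at 30 h of 20 and 32.4%, so the spread between windows also held the values of the Myc window. A region not called is not thereby closed, since the treated lists were shallower. In all 3 lists the lowest deposited score was also 540, and the rule behind that bound is not known here. Whether a region is absent through depth or through that rule was not tested.

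Regions of the window were also compared with all DMSO regions of like strength. Quartiles of -log10 q over all DMSO regions ended at 45.8, 91.7 and 194. Of the 10 window regions in the strongest quartile, 1 was missing at 6 h and 0 at 30 h (which allows up to 27.8%), beside 5.42% and 1.71% of all regions of that quartile. Of the 8 in the third quartile, 4 were missing at 6 h, beside 28.2%, and 0 at 30 h (up to 32.4%), beside 11.8%. The stronger regions of the window were thus all called at 30 h, but with a lower median ratio than in the whole list. In these upper 2 quartiles the median ratio of called regions at 30 h was 0.661, beside 0.915 over the whole list. At 6 h it was 0.477, beside 0.780. Over called regions of all quartiles the window's median was 0.992 at 30 h, beside 0.985 over the whole list. At 6 h that median was 0.789, beside 0.855. The second quartile held 14, of which 8 were missing at 6 h and 6 at 30 h, beside 57.8% and 32.3%. In the weakest quartile 7 of 10 were missing at 6 h and 3 at 30 h, beside 83.0% and 58.4%. At 30 h the window's share was thus lower in the weakest quartile, 30%, than in the second, 42.9%, whereas over the whole list it was higher. With 8 to 14 regions in a quartile, the interval of each window share held the genome-wide share.

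**Figure D2:**
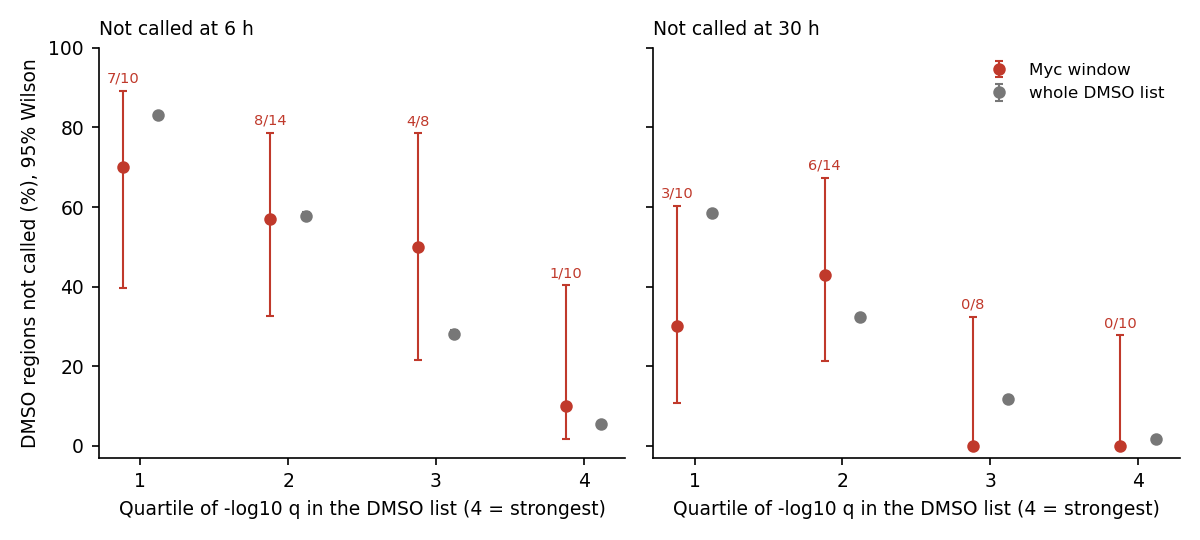
DMSO regions not called at 6 h (left) and at 30 h (right), in percent, by quartile of -log10 q in the DMSO list, for the Myc window (red, counts above) and the whole DMSO list (grey); bars are 95% Wilson intervals, which for the whole list are smaller than the points. At 30 h none of the 18 window regions in the stronger 2 quartiles was missing.

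The accessible cluster closest to Myc was called throughout at its main regions. It comprised 4 regions within 5 kb of the anchor on the side away from Pvt1, and it stood on dense local read cover. The local background in the DMSO list was 13.6 to 15.1 times the lowest of the list, so the fold enrichments were only 3.17 to 5.60 at pileups of 147 to 267. The widest of them, from 61816343 to 61817437, had a summit pileup of 267 in DMSO. At 6 h it was 189 where 168 were expected, a ratio of 1.12 (0.928 to 1.36), and at 30 h 269 where 216 were expected, a ratio of 1.25 (1.05 to 1.48). It was at or above its expected level in both treated lists.

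The region nearest to the anchor, from 61818527 to 61818908, had a pileup of 246 in DMSO, 120 at 6 h and 203 at 30 h. Its ratios were 0.774 (0.617 to 0.967) at 6 h and 1.02 (0.845 to 1.24) at 30 h. The 6 h interval held the genome-wide median of 0.855 but not 1, and at 30 h the pileup matched the expected 199 within counting error. The 2 small regions of the cluster, from 61814892 to 61815229 and from 61815923 to 61816168, were not called at 6 h. In the DMSO list they lay in the weakest quartile by -log10 q, where 83.0% of all regions were missing at that time. By pileup, 147 and 168 in DMSO, they stood above the median of 129 over all DMSO regions. At 30 h they were called with pileups of 164 and 153, ratios of 1.38 (1.10 to 1.74) and 1.13 (0.900 to 1.41). The second ended within 500 bp of the widest region of the cluster at 6 h and counts as shared at that distance.

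On the Pvt1 side of the anchor, the first region was not called after treatment. This region at 4.15 kb, from 61823930 to 61824457, had a pileup of 122 and a -log10 q of 65.2 in DMSO and was called at neither time, although pileups of 76.9 and 98.5 were expected. Among the 3133 DMSO regions with a -log10 q within 10% of its own, 58.2% were missing at 6 h and 31.3% at 30 h. At 49.6 kb a region with 5 summits in DMSO, from 61869212 to 61870415, was called at both times but narrower, 761 bp at 6 h and 664 bp at 30 h against 1204 bp. Its pileup, 114 in DMSO, was 101 at 6 h and 151 at 30 h, with ratios of 1.41 (1.07 to 1.85) and 1.64 (1.28 to 2.11). It was the only called region of the window whose interval lay above both 1 and the genome-wide median at 6 h.

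2 of the strongest regions of the window lay between 50 and 100 kb, and their ratios differed. The region at 55.4 kb, from 61875169 to 61875706, was second by -log10 q, with a pileup of 550 in DMSO. It was at 158 at 6 h, where 346 were expected, and at 309 at 30 h, where 444 were expected. The ratios of 0.456 (0.380 to 0.545) and 0.696 (0.603 to 0.802) both lay below the genome-wide medians. The region at 91.0 kb, from 61910520 to 61911563, had nearly the same DMSO pileup, 545. Its pileups of 332 and 547 gave ratios of 0.967 (0.841 to 1.11) and 1.24 (1.10 to 1.40). The intervals of these neighbours overlapped at neither time.

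**Figure D3:**
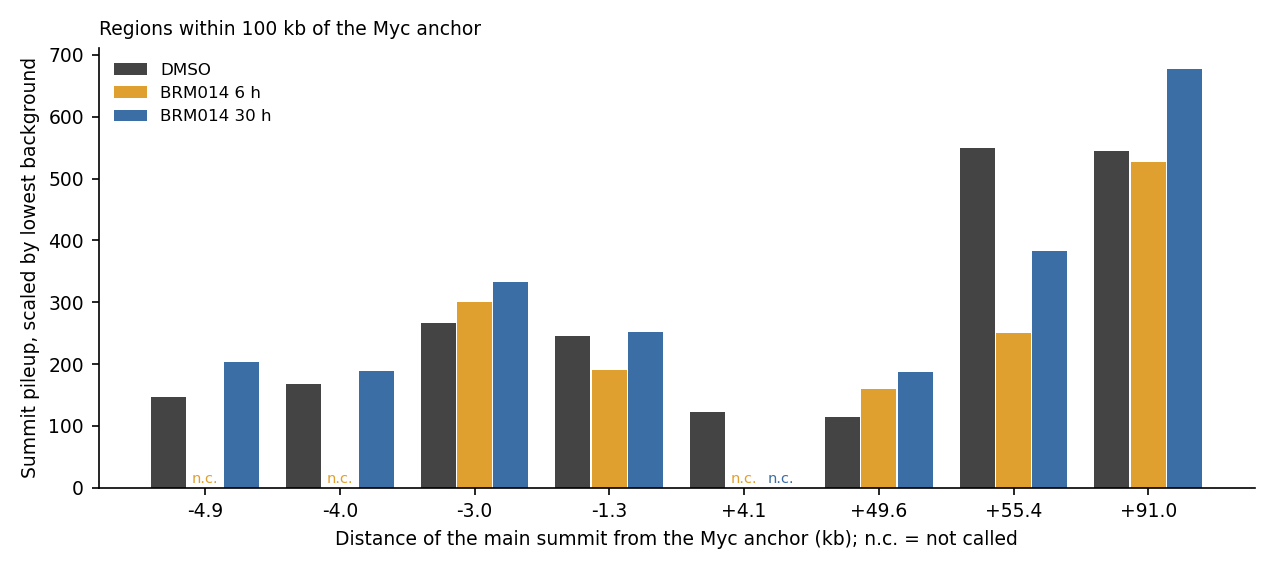
Summit pileup of the 8 DMSO regions within 100 kb of the Myc anchor, scaled to the lowest background of the DMSO list, in DMSO (dark), 6 h (orange) and 30 h (blue), from pooled lists with no replicate error; n.c. marks a region not called. The bar of the region at +55.4 kb is lower than DMSO at both times, whereas that at +91.0 kb stays near DMSO at 6 h and exceeds it at 30 h.

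Between 100 and 250 kb, 7 DMSO regions followed each other at spacings of 8.93 to 43.6 kb. Of them, 5 were called in all 3 lists, beside 54.1% of all DMSO regions. The strongest, at 131 kb from 61950428 to 61951067, had pileups of 373 in DMSO, 112 at 6 h and 222 at 30 h, with ratios of 0.477 (0.382 to 0.590) and 0.737 (0.622 to 0.873). Its neighbour at 118 kb had 223, 49 and 147, with ratios of 0.349 (0.251 to 0.477) and 0.817 (0.659 to 1.01). These 2 regions were low at 6 h and closer to the expected level at 30 h. The regions at 140 kb and 151 kb were above the expected level at 30 h. Their 30 h ratios were 1.29 (1.02 to 1.62) and 1.89 (1.48 to 2.42), after 0.788 and 1.13 at 6 h.

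The region at 163 kb, from 61983145 to 61983641, was the only one of the window that was called at 6 h and not at 30 h. Its pileup was 75 in DMSO and 39 at 6 h, where 47.2 were expected, and 60.5 were expected at 30 h. The region at 190 kb, also with a pileup of 75, was called at neither time. That at 234 kb was called at both, with ratios of 0.763 (0.531 to 1.08) and 1.03 (0.765 to 1.39), and narrowed from 906 bp to 423 and 465 bp.

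From 250 to 500 kb lay 10 DMSO regions, of which 7 were missing at 6 h and 3 at 30 h. Over all DMSO regions 43.6% and 26.1% were missing. The median -log10 q of these 10, 68.0, fell in the second quartile, where the shares were 57.8% and 32.3%. The regions themselves ranged from the weakest to the strongest quartile, so these shares are not matched to the set. The strongest region of the window, at 340 kb, had a pileup of 957 in DMSO. At 6 h it was 280 where 603 were expected, a ratio of 0.464 (0.405 to 0.531). At 30 h it was 766 where 773 were expected, a ratio of 0.992 (0.901 to 1.09). It was thus low at 6 h and within counting error of its expected level at 30 h. A small satellite 0.1 kb beyond it, from 62160580 to 62160859, was called at neither time, but lies within 500 bp of the treated calls of the main region.

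The region at 299 kb, from 62118189 to 62119319, was another with a high pileup throughout: 494 in DMSO, 327 at 6 h and 597 at 30 h. Its ratios were 1.05 (0.911 to 1.21) and 1.50 (1.33 to 1.69). At 257 kb the region from 62076783 to 62077289, among the weakest quartile of the DMSO list, had the highest ratio of the window at both times. Its pileup of 55 in DMSO became 49 at 6 h and 111 at 30 h, ratios of 1.41 (0.942 to 2.12) and 2.50 (1.79 to 3.52).

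The region at 404 kb, from 62223682 to 62224543, was the strongest of those missing at 6 h and the only one of the strongest quartile. Its pileup was 303 in DMSO, so 191 were expected at 6 h, where it was not called. Among the 2335 DMSO regions with a -log10 q within 10% of its 283, 5.44% were missing at that time. At 30 h it was called with a pileup of 153, a ratio of 0.626 (0.512 to 0.762). The region at 270 kb, from 62089411 to 62090271, was likewise missing at 6 h, and at 30 h had a ratio of 0.611 (0.451 to 0.820) and 301 of its 861 bp. Both were thus called at 30 h below the expected level. The region at 333 kb, also missing at 6 h, had a 30 h ratio of 1.69 (1.19 to 2.41), and that at 373 kb one of 1.13 (0.757 to 1.68). Those at 307 kb and 394 kb, with DMSO pileups of 35 and 78, were called at neither time.

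Beyond 500 kb most called regions were below the expected level. The region at 513 kb, from 62332159 to 62333263, the third of the window by -log10 q, had a pileup of 492 in DMSO, 84 at 6 h and 239 at 30 h. Its 6 h ratio of 0.271 (0.212 to 0.342) was the lowest of any called region of the window at that time, and the 30 h ratio was 0.602 (0.513 to 0.704). Its width was 1105, 638 and 652 bp in the 3 lists. Only 5 DMSO regions lay between 500 and 1000 kb. Of the other 4, those at 658 kb and 946 kb were called at neither time, with DMSO pileups of 36 and 83. The region at 902 kb was missing at 6 h and had a pileup of 39 at 30 h where 125 were expected, the lowest 30 h ratio of the window at 0.312 (0.214 to 0.445). The weak region at 710 kb, with a pileup of 48 in DMSO, was called at both times with ratios of 1.29 (0.823 to 2.01) and 0.852 (0.530 to 1.35).

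A second dense stretch lay between 1000 and 1500 kb, with 9 DMSO regions. All 9 were called at 30 h and 6 of them at 6 h. Their median -log10 q of 144 fell in the third quartile, where 11.8% of all regions were missing at 30 h and 28.2% at 6 h. These 9 also ranged from the weakest to the strongest quartile, so the shares are not matched to the set. The strongest, at 1352 kb from 63171934 to 63172801, had pileups of 417, 86 and 148, with ratios of 0.327 (0.256 to 0.414) and 0.440 (0.362 to 0.532). The region at 1424 kb, from 63242707 to 63243848, had 328, 163 and 201, with ratios of 0.789 (0.650 to 0.955) and 0.759 (0.634 to 0.908). That at 1178 kb had 206, 81 and 89, with ratios of 0.624 (0.477 to 0.811) and 0.535 (0.413 to 0.690). These 3 regions of the strongest quartile were below the expected level at both times. The 6 h interval at 1424 kb, however, held the genome-wide median of 0.855.

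A pair of regions at 1078 and 1079 kb, 0.2 kb apart, had DMSO pileups of 222 and 225. The first was called at both times, with ratios of 0.307 (0.216 to 0.428) and 0.575 (0.450 to 0.729). The second was missing at 6 h and had a 30 h ratio of 0.435 (0.332 to 0.564). Neither reached the expected level in a treated list. At 1496 kb the region from 63315699 to 63316452 had in DMSO a fold enrichment of 24.6. It was missing at 6 h with 118 expected, and at 30 h its pileup was 57 where 151 were expected, a ratio of 0.378 (0.276 to 0.510). The region at 1474 kb, also missing at 6 h, had a 30 h ratio of 0.628 (0.408 to 0.951). The weak regions at 1073 kb and 1409 kb were near the expected level at both times, with ratios of 0.924 and 0.911 at 6 h and 1.18 and 1.10 at 30 h, all with intervals that held 1. The last 2 DMSO regions, at 1570 and 1613 kb, were missing at 6 h and called at 30 h with ratios of 0.531 (0.349 to 0.793) and 2.03 (1.29 to 3.23).

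Split at 500 kb, the median 30 h ratios of the called DMSO regions lay on different sides of the expected level. Of the 26 regions up to 500 kb, 19 were called at 30 h with a median ratio of 1.13 (range 0.611 to 2.50). Of the 16 beyond it, 14 were called with a median ratio of 0.588 (range 0.312 to 2.03). These medians leave out the 7 nearer and 2 farther regions that were not called. At 6 h the medians of the called regions were both below 1, 0.807 over 14 nearer and 0.707 over 8 farther regions. They leave out 12 nearer and 8 farther regions not called at 6 h, so medians at 6 h and 30 h cover different regions. The counting interval lay below both 1 and the genome-wide median in 4 of the 19 nearer and in 10 of the 14 farther regions. It lay above both in 9 of the 19 and in 1 of the 14. Over all called DMSO regions these shares at 30 h were 28.2% below and 19.0% above, against 14 and 10 of the 33 called in the window, 42.4% (27.2 to 59.2%) and 30.3% (17.4 to 47.3%). At 6 h the same intervals were below in 4 of 14 nearer and 4 of 8 farther regions, and above in 1 and 0. Over all regions called at 6 h the shares were 31.4% and 13.4%.

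The farther regions were somewhat stronger in DMSO by median -log10 q, 108 against 78.4, but not by median pileup, 119.5 against 143.5. Over the whole list the strongest quartile by -log10 q had lower 30 h ratios, with a median of 0.917. Within that quartile, the 6 nearer regions had 30 h ratios of 0.696, 1.24, 0.737, 1.50, 0.992 and 0.626, and the 4 farther ones 0.602, 0.535, 0.440 and 0.759. These sets overlapped in their ratios. The split at 500 kb was 1 of the bounds set for distance, but it was singled out after the values were seen, and the difference was not tested.

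**Figure D4:**
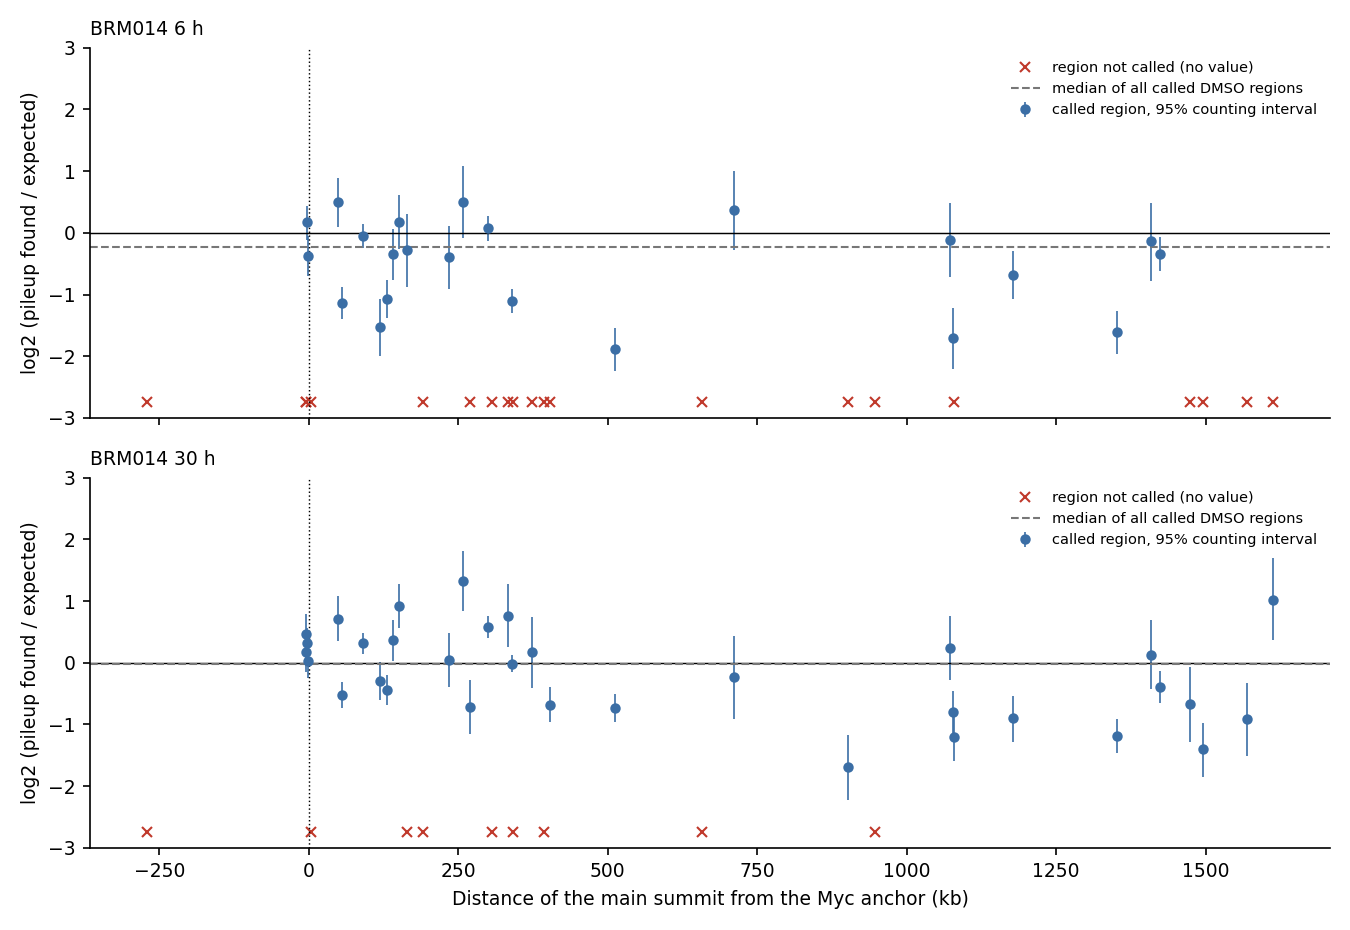
Pileup found over that expected from DMSO after scaling to the lowest background of each list (log2 scale, vertical) for the 42 DMSO regions, by distance of the main summit from the Myc anchor in kb, at 6 h (top) and 30 h (bottom); bars are 95% counting intervals, crosses are regions not called, and the dashed line is the median of all called DMSO regions. Of the 19 regions up to 500 kb called at 30 h, 13 lie above both lines and 5 below both. Of the 14 beyond it, 11 lie below both and 3 above both. In the whole window 16 of the 33 called regions lie above both lines and 16 below both. Over all DMSO regions called at 30 h, 15000 of 31283 were above both and 15640 below both. The split at 500 kb was singled out after the values were seen.

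Of the 21 regions called in all 3 lists, 18 had a higher ratio at 30 h than at 6 h, 85.7% (65.4 to 95%), where the share over all such regions was 70.3%. With each time set relative to its genome-wide median it was 17 of 21, 81.0% (60 to 92.3%), where the share over all was 52.8%. The 13 regions up to 500 kb were all higher at 30 h before that adjustment, and 5 of the 8 farther ones were. The 3 that were not higher at 30 h were those at 710, 1178 and 1424 kb. Different samples gave the 6 h and 30 h lists, so no cells were followed over time.

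Some regions of the treated lists had no DMSO region. At 6 h there were 4 of 26, 15.4% (6.15 to 33.5%), where the share over the list was 7.42%. At 30 h there were 12 of 45, 26.7% (16.0 to 41.0%), where it was 17.9%. Both intervals held the genome-wide share. With only regions of score 1000 in every list, it was 0 of 11 at 6 h, beside 2.95% over the list. At 6 h these regions were weak, with pileups of 30 to 38, and 3 of the 4 were also called at 30 h. The first 2 of these lay away from Pvt1, at -128 and -124 kb, inside the long stretch without a DMSO region, and had pileups of 31 and 30 at 6 h and 28 and 50 at 30 h. The third lay at 670 kb, from 62490125 to 62490700 in the 30 h list, with a pileup of 38 at 6 h and 94 at 30 h. The 6 h region at 40.2 kb had no counterpart at 30 h.

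Among the 12 at 30 h, the strongest by -log10 q was at 273 kb, from 62092862 to 62093496. Its pileup was 143 and its -log10 q of 114 stood at percentile 67.8 of the 30 h list. It lay 2.59 kb from the DMSO region at 270 kb, which at 30 h had narrowed. No 6 h region overlapped the region at 273 kb. Next by -log10 q came the region at 670 kb, that at 1735 kb, from 63554462 to 63555016, with a pileup of 68 and a -log10 q of 50.05, and that at -124 kb, with a -log10 q of 42.6. Of these, the regions at 670 and -124 kb are the ones also called at 6 h. The region at 1735 kb lay beyond the last DMSO region of the window, 121 kb from it. The region at 581 kb, from 62400393 to 62401282, had 3 summits and a -log10 q of 40.9. The other 7 regions without a DMSO region at 30 h had pileups of 28 to 90. Of these, the ones at 10.5, 50.7, 346 and 1412 kb lay 0.213 to 5.93 kb from a DMSO region, and those at -128, -88.5 and 1539 kb lay 30.6 to 122 kb from one.

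Called regions were mostly narrower than in DMSO. At 6 h 18 of 22 were narrower, 81.8% (61.5 to 92.7%), where the share over all called regions was 75.3%, and the median width ratio was 0.878 against 0.912. At 30 h 25 of 33 were narrower, 75.8% (59.0 to 87.2%), where it was 66.9%, with median ratios of 0.903 and 0.951. The main summit stayed in place: it moved by a median of 11.5 bp at 6 h and 11 bp at 30 h, beside 12 and 10 bp over all called regions. The farthest move was 183 bp, at 118 kb in the 6 h list. The widest region of the cluster next to Myc and the region at 299 kb were 0.974 and 1.004 times their DMSO width at 30 h. Width depends on depth as well, and its part was not tested.

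**Figure D5:**
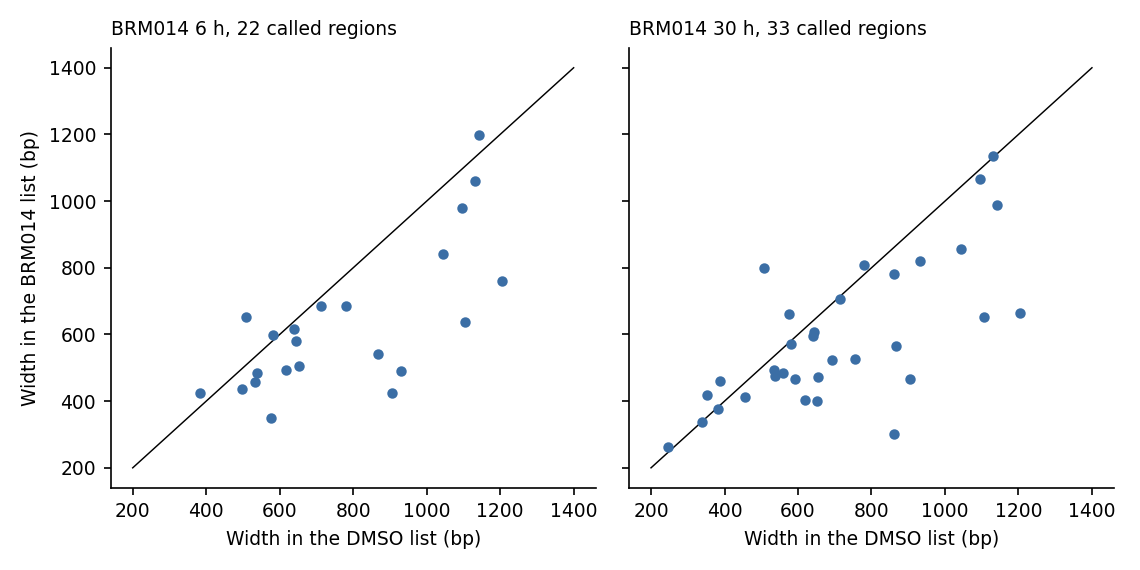
Width in bp of the DMSO regions of the Myc window (horizontal) and of the overlapping region after BRM014 (vertical) at 6 h (22 regions, left) and 30 h (33 regions, right); the line marks equal width. Most points lie below the line, 18 at 6 h and 25 at 30 h.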

How the data were processed

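ATAC-seq of 6 NMuMG samples gave 3 peak lists, each made by the authors from both replicates of a group, per the labels. Peaks were called with MACS2 2.1.2 on mm9, per the submitters' processing notes, and no source used here gives the aligner, filters, shift of reads or caller options. The deposited score (540 to 1000), the fold enrichment (a ratio at the summit) deposited by the authors, and the deposited -log10 p and -log10 q are the authors' own values per entry. Overlapping entries were merged, with the highest values kept, and a region counted as called in another list at an overlap of at least 1 bp. Pileup and background were solved for each entry assuming the caller's default of (pileup + 1) / (background + 1) and a Poisson p, and the solutions returned every deposited -log10 p to within 0.001 (100% of entries). Relative depth was set by each list's lowest background, 3.37 for DMSO, 2.12 for 6 h and 2.72 for 30 h. Of several overlapping summits the highest pileup was used. Shares have 95% Wilson intervals and ratios exact binomial intervals. All cover counting error only. Overlap and pileup steps were tested on simulated data. Python 3.11.15, pandas 2.3.3, scipy 1.17.1 and statsmodels 0.14.6 were used.

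The window, its members, the distance bounds and the tests were chosen with earlier results of these data known. Regions named in full were the nearest to the anchor, the 10 highest by -log10 q, the 5 highest in each missing class and among regions without a DMSO region, and the 5 lowest and highest ratios at each time among those called in all lists; the others were added to account for every member. Alternatives changed the overlap rule, the merging, the threshold, the list length, the window and the scaling. The planned search of the Myc promoter for motifs was not run, as the sequence table used holds no entry for Myc or Pvt1.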

Additional observations from a re-analysis of the deposited data

How the results depend on the processing

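When 5 shares and 2 median ratios were recomputed with other overlap rules, thresholds, list lengths, window limits and scalings, 39 values stayed inside the 95% interval of the reported value and 7 did not. With only regions of score 1000 in every list, the window kept 30 DMSO regions. The 6 h list lacked 63.3% of them, the 30 h list 36.7% and both lists together 36.7%. Over the whole list these shares also rose, to 51.7%, 29.7% and 28.6%. Under this limit the window's share lacking a DMSO counterpart at 6 h was 0.0% (0 of 11), beside 2.95% over the whole list. The treated lists lose more regions to that limit than the DMSO list. With lists of equal length 32.0% were missing at 6 h, beside 23.1% over the whole list. Of the 6 h regions 34.6% then had no DMSO region, beside 22.3%, since the weakest DMSO regions are left out. The median ratio at 6 h was 0.289 with missing regions counted as 0, beside 0.406 over the whole list. Over the 22 called regions alone it was higher by construction, 0.789, beside 0.855. Without the 100 kb on either side of the anchor, and with missing regions counted as 0, the window's median at 6 h was 0.136. At 30 h the median ratio was 0.717 with missing regions counted as 0, beside 0.821 over the whole list. Under other overlap rules, the call of single regions was the same in 247 cases and changed in 5. At an overlap of at least 50% the region at 234 kb at 6 h and that at 270 kb at 30 h were not called. With regions within 500 bp shared, the satellite at 341 kb at both times and the small region at -3.96 kb at 6 h were called. Shares missing among regions of like -log10 q, an alternative chosen after seeing the data, differed from those of the quartile beyond counting error in 70 of 84 cases. No paired analysis was possible because the deposited lists pool their replicates, and leaving out a replicate was likewise not possible. Depth limits both treated lists: regions of the window without a DMSO region were called from pileups down to 30 at 6 h and 28 at 30 h.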
